A study of Mus musculus with 4 samples.

Results

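Of the genes that drive or mark cell division, 42 were followed in fibroblasts taken out of mouse mammary tumours, out of 22456 genes in the deposited table. They were chosen by name, for their known roles, but with earlier results of these data known. Of the 42, 17 act in or before S phase, when DNA is copied, and 16 act in mitosis or mark dividing cells. The remaining 9 are D cyclins and inhibitors of cyclin-dependent kinases (CDKs), which set the pace of entry into the cycle. The 42 members were present in the table, and each passed the filter on low values, which asked for a mean of log2 of 10 or more. The GSK group (2 libraries) came from tumours of 4T1 cells, a Balb/c mammary carcinoma line, kept for 5 days in 5 µM GSK269962A. The DMSO group (2 libraries) came from tumours of 4T1 cells kept in the solvent. In both groups the 4T1 cells were transplanted orthotopically into Balb/cAnN mice, tumours were taken 8 days after fat pad injection, and host cells were kept by depletion of cells positive for CD45, CD31, CD326 or human CD2. The compound was thus given to the injected cancer cells, and the fibroblasts are cells of the host. Sex, age, and whether the 2 libraries of each group came from separate animals or from pools are not stated in the labels used here. P-values therefore measure only the spread between these libraries.

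Cell division runs in an ordered way. Origins of replication are licensed by loading the MCM helicase, E cyclins and the E2F transcription factors start S phase, and the ribonucleotide reductase and thymidylate synthase supply DNA building blocks. After DNA has been copied, Cdk1 with A and B cyclins drives the cell into mitosis, where the kinases Plk1, Aurka and Aurkb build the spindle, the checkpoint proteins Bub1 and Bub1b hold the cell until chromosomes are attached, and Cdc20 then releases it. In resting fibroblasts most of these transcripts are repressed by complexes of E2F and RB family proteins, while D cyclins and CDK inhibitors answer to growth signals and stress. S phase genes are known to be read through E2F sites, and mitotic genes through a CHR element together with CCAAT boxes bound by NF-Y.

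The promoters of the members differed in these elements. Of the 42 members, 33 had a promoter in the RefSeq table (GRCm38.p6), with 38 promoters of 300 bases, 250 before and 50 after the start. Absent from it were Kif20a, Ccna2, Gins2, Aurkb, Ccnd2, Ccne2, Cdkn1c, Mcm4 and Ccnd1. An E2F word (TTTCCCGC, TTTCGCGC, TTTGCCGC or TTTGGCGC, on either strand) was in 6 of 15 S phase promoters (40.0%), in 1 of 13 mitosis promoters (7.69%) and in 2.26% of all 32851 promoters. A CHR word (TTTGAA or TTTAAA, on either strand) was in 12 of 13 mitosis promoters (92.3%), in 5 of 15 S phase promoters (33.3%) and in 27.6% of all promoters. CCAAT, on either strand, was in 13 of 13 mitosis promoters, in 10 of 15 S phase promoters (66.7%) and in 37.4% of all promoters. In the D cyclin and inhibitor genes, 1 of 10 promoters held an E2F word, 2 a CHR word and 4 CCAAT. A match describes these letters only. The 250 bases before the start are printed for the 2 S phase members with an E2F word in that stretch and the 2 mitosis members with a CHR word in it that had the smallest p-values of the comparison described further on. Members with more than 1 promoter in the RefSeq table were passed over. They run 5′ to 3′ along the gene's strand, with E2F, CHR and CCAAT words in capitals. In Mcm5 (chr8:75109259-75109508, plus strand) the E2F words TTTCGCGC and GCGCCAAA share 4 letters and start 153 and 149 bases before the start, and no words of different kinds overlapped in the printed stretches. Cdc6 lies at chr11:98907901-98908150 (plus strand), Plk1 at chr7:122159185-122159434 (plus strand) and Ccnb1 at chr13:100786487-100786736 (minus strand).
Mcm5: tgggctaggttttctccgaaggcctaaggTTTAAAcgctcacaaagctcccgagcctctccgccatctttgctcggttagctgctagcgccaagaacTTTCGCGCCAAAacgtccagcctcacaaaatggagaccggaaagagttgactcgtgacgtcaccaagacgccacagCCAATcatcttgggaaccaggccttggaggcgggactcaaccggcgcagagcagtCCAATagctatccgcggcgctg
Cdc6: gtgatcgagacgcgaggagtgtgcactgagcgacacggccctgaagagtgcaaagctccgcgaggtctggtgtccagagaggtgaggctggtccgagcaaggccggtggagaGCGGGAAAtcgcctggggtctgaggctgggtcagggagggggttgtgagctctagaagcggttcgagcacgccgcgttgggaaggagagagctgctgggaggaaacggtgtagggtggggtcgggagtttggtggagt
Plk1: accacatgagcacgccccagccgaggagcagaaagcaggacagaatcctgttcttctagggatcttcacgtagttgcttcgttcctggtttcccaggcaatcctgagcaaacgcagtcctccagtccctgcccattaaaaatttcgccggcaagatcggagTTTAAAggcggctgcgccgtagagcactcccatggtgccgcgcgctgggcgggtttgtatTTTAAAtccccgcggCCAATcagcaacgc
Ccnb1: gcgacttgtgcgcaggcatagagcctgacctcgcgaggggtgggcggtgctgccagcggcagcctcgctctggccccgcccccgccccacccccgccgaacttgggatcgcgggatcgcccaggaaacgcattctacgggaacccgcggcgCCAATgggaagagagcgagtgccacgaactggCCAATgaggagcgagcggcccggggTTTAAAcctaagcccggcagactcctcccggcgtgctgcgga
Mcm5 and Cdc6 hold the E2F word of S phase genes, Cdc6 with no CHR word or CCAAT in that stretch. Mcm5 also has a CHR word 221 bases and CCAAT 77 and 22 bases before its start. Plk1 has CHR words 89 and 29 bases and CCAAT 14 bases before its start, and Ccnb1 has CCAAT 99 and 67 bases and a CHR word 42 bases before its start.

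The deposited values are normalised log2 expression, and since no read counts come with them, sequencing depth is not known. How they were transformed is not stated in the sources used here, so every change is one on the deposited scale. Fibroblast markers were high, led by Col1a1, a type I collagen chain, at a mean of 20.51. They summed to 21.58 and 21.67 (log2) in GSK and to 21.71 and 21.69 in DMSO, with a median change (GSK minus DMSO) of 0.0009. Of the markers of removed cells, Epcam (epithelium) was at 0.32, Adgre1 (macrophages) at 0.79, Cd79a (B cells) at 1.70, Pecam1 (endothelium) at 3.31 and Ptprc (leukocytes) at 3.81. Higher single genes of those lists were Cd53 at 11.03, Flt1 at 10.84, Krt19 at 8.82, Cd3e at 8.62 and Csf1r at 8.28, and 0 genes of the neutrophil and B cell lists passed the filter. Pericyte and smooth muscle markers, whose cells were not depleted, were led by Rgs5 at 12.52 and summed to 14.33 and 14.33 (log2) in GSK and to 13.92 and 14.20 in DMSO, with 0 of 8 called, and the part of these cells in the results was not tested. The summed pan-leukocyte list was at 11.83 and 11.19 in GSK and at 10.74 and 10.51 in DMSO, with Cd53 alone at 11.81 and 11.15 in GSK and at 10.70 and 10.46 in DMSO. The endothelial list summed to 11.47 and 11.08 in GSK and to 10.84 and 10.84 in DMSO, with 0 of 5 tested genes called. The epithelial and 4T1 list summed to 9.02 and 8.83 in GSK and to 9.21 and 9.14 in DMSO, with 0 of 4 tested genes called. Called means an adjusted p under 0.05 in the limma comparison described further on, which 41 of 14548 tested genes had (0.282%). At that share, counts of 0 in lists this short do not show that the groups were equal. The leukocyte, endothelial and pericyte and smooth muscle sums were thus higher, and the epithelial and fibroblast sums lower, in both GSK libraries than in both DMSO libraries. A sum weighs the highest gene of its list most, such as Flt1 (mean 10.84) or Krt19 (mean 8.82). The median change of the tested genes (GSK minus DMSO) was 0.07 for the leukocyte list and 0.02 for the endothelial list. It was 0.22 for the pericyte and smooth muscle list and -0.06 for the epithelial list. The summed T cell list, at 8.79 and 8.66 in GSK and 9.17 and 8.78 in DMSO, and the macrophage list, at 8.56 and 8.41 in GSK and 8.62 and 8.53 in DMSO, overlapped between groups.

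Transcripts of dividing cells were detected in both groups and differed little between them. Most S phase and mitosis genes had slightly lower estimates in fibroblasts from GSK tumours, by at most 0.16 (log2), while the D cyclin Ccnd2 was 0.22 higher and the CDK inhibitor Cdkn1a 0.29 lower. In limma, 0 of 42 members passed an adjusted p of 0.05, where 41 of 14548 tested genes did (0.282%). The smallest adjusted p of a member was 0.100, that of Ccnd2. At an unadjusted p under 0.05, 10 members were lower in GSK and 1 was higher, against 8.13% and 7.88% of all tested genes. In bulk RNA, fewer dividing cells and less RNA per dividing cell cannot be told apart.

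Of the 17 S phase genes, 14 had a negative estimate, against 50.5% of all tested genes, with a median change of -0.08 (log2, GSK minus DMSO) where the median of all tested genes was -0.001. In 13 of the 17, both GSK libraries lay below both DMSO libraries, a pattern found in 24.5% of all tested genes. In 0 of 17 did both lie above, against 24.1%. At an unadjusted p under 0.05, 5 S phase genes were lower and 0 higher, against 8.13% and 7.88% of all tested genes. Genes of the cell cycle vary together within a library, so these counts are not counts of independent genes. The members were also chosen with earlier results of these data known, so the shares of all tested genes are not an unbiased background for them.

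The MCM genes encode the subunits of the replicative helicase. In each of the 6, both GSK libraries lay below both DMSO libraries, a pattern found in 24.5% of all tested genes. The 6 estimates lay between -0.14 and -0.06. Mcm5 (ENSMUSG00000005410) had 9.18 and 9.18 in GSK and 9.31 and 9.34 in DMSO. Both GSK values were nearly equal and below both DMSO values. The change of Mcm5 was -0.14 ± 0.04 (limma SE, 95% interval -0.25 to -0.04, adjusted p = 0.178). Mcm3 had 9.42 and 9.37 in GSK and 9.52 and 9.51 in DMSO, a change of -0.12 (adjusted p = 0.258). For Mcm2 the gap was narrow, since GSK library 1 at 9.36 came next to DMSO library 1 at 9.37, with 9.32 in GSK library 2 and 9.50 in DMSO library 2. Mcm4, Mcm6 and Mcm7 were at -0.07, -0.06 and -0.06. Mcm7 shares 986 bases at 98.4% identity with the gene Gm5487 and exons with Ap4m1 on the other strand, so its value is uncertain.

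Licensing and firing factors gave a mixed picture. Cdt1, which loads the helicase, had 7.97 and 8.09 in GSK and 8.17 and 8.16 in DMSO, lower in both GSK libraries and lowest in library 1, with a change of -0.14 ± 0.06 (adjusted p = 0.2998). Cdc6, its partner in loading, had a mean of 6.80 and was at -0.07. Cdc45, part of the active helicase, was at -0.08, and 209 of its 3506 exonic bases lie opposite exons of Ufd1. Gins2, a GINS subunit of the same complex, had 9.06 and 9.14 in GSK and 9.06 and 9.14 in DMSO. Its groups coincided, with an interval of the difference from -0.12 to 0.13, though 2758 of its 4097 exonic bases lie opposite exons of Gse1 and its value is uncertain.

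Genes that supply DNA synthesis lay lower in both GSK libraries in 4 of 4 cases, a pattern found in 24.5% of all tested genes. Rrm2, the regulated subunit of ribonucleotide reductase, had 9.42 and 9.47 in GSK and 9.55 and 9.66 in DMSO. Its GSK values lay below both DMSO values, and its change of -0.16 ± 0.05 was the most negative of the S phase list (95% interval -0.29 to -0.03, adjusted p = 0.212). Tyms, thymidylate synthase, had 8.58 and 8.62 in GSK and 8.72 and 8.75 in DMSO, a change of -0.13 (adjusted p = 0.223). Pcna, the sliding clamp of the polymerases, had 10.56 and 10.51 in GSK and 10.63 and 10.64 in DMSO, a change of -0.10 (adjusted p = 0.319). Pcna shares 781 bases at 99.2% identity with the pseudogene Pcna-ps2, which was listed at 3.35. Rrm1, the large subunit of the reductase, was at -0.04.

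The genes that start S phase did not show that order. E2f1, the transcription factor, had 9.07 and 9.05 in GSK and 9.01 and 9.06 in DMSO, and its groups overlapped (change 0.03, 95% interval -0.08 to 0.13). Ccne1, an E cyclin, had 8.22 and 8.16 in GSK and 8.10 and 8.28 in DMSO, so the DMSO libraries enclosed both GSK libraries. Ccne2, the other E cyclin, was at -0.12 with overlapping groups, with 6.98 and 6.90 in GSK and 7.15 and 6.97 in DMSO, where DMSO library 1 stood above the other libraries. Exons of Ccne2 and Ints8 overlap on opposite strands, and its value is uncertain.

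**Figure D1:**
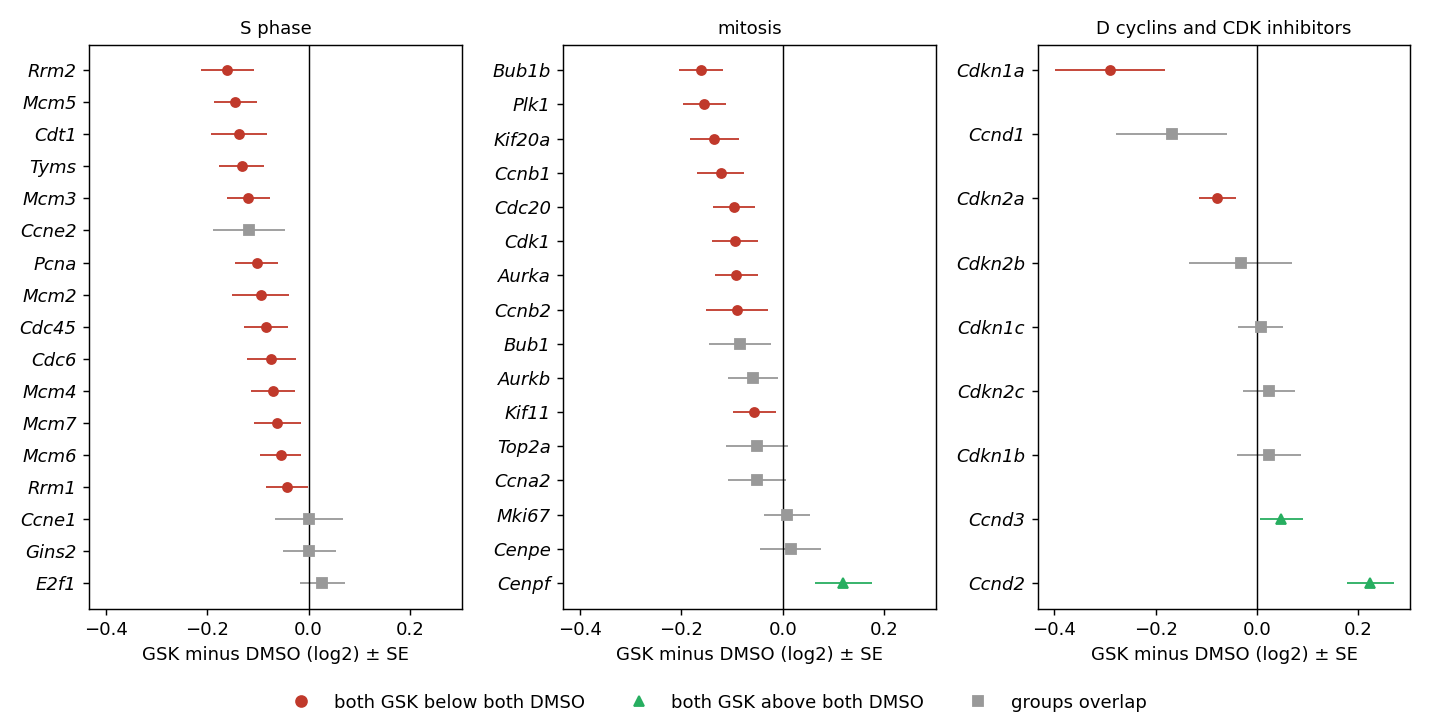
Change of each member between GSK and DMSO (x axis, log2, with limma's standard error as bars), in the lists S phase, mitosis, and D cyclins and CDK inhibitors; red circles mark genes with both GSK libraries below both DMSO libraries, green triangles the opposite, and grey squares overlapping groups. Of 17 S phase genes 13 are red and 0 green, of 16 mitosis genes 9 are red and 1 is green, and the widest estimates are those of Cdkn1a and Ccnd2. Of all tested genes, 24.5% have the pattern marked red and 24.1% that marked green.

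Of the 16 mitosis genes, 13 had a negative estimate, against 50.5% of all tested genes, with a median change of -0.09. In 9 both GSK libraries lay below both DMSO libraries, against 24.5% of all tested genes. In 1, Cenpf, both lay above, against 24.1%. At an unadjusted p under 0.05, 4 mitosis genes were lower and 0 higher, against 8.13% and 7.88% of all tested genes. The limits given for the S phase counts hold for these counts too. The median was -0.126 without GSK library 1 and -0.045 without GSK library 2, so library 2 carried more of it. The summed epithelial and 4T1 markers given above had the same order, lower in both GSK libraries and lowest in GSK library 2. That sum is led by Krt19, at a mean of 8.82, and 3 of the 7 genes in it were below the filter. The order was not particular to that list. The mean of the fibroblast list had it too, at 15.288 and 15.249 in GSK and 15.337 and 15.294 in DMSO, though the fibroblast sum was lowest in GSK library 1. The T cell and macrophage sums were also lowest in GSK library 2, with overlapping groups. The part of any of these marker lists in the lower S phase and mitosis values was not tested.

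Kinases, checkpoint genes and Cdc20 had 6 of 6 negative estimates, against 50.5% of all tested genes. Bub1b and Plk1 had the most negative of this list. Bub1b, the checkpoint kinase BubR1, had 9.11 and 9.08 in GSK and 9.23 and 9.28 in DMSO. Plk1, the polo kinase, had 9.52 and 9.51 in GSK and 9.64 and 9.69 in DMSO, and 156 of its 2199 exonic bases lie opposite exons of Gm44985. In both genes the libraries of a group lay close together and the groups were apart. Bub1b was at -0.16 ± 0.04 (95% interval -0.27 to -0.05, adjusted p = 0.161) and Plk1 at -0.15 ± 0.04 (95% interval -0.26 to -0.05, adjusted p = 0.164). Aurka, the kinase of spindle poles, had 8.53 and 8.54 in GSK and 8.63 and 8.62 in DMSO, and Cdc20, the activator of the anaphase-promoting complex, 9.59 and 9.56 in GSK and 9.66 and 9.67 in DMSO. Both had lower values in both GSK libraries, at -0.09 and -0.10. Aurkb, the kinase of the chromosomal passenger complex, and Bub1 were at -0.06 and -0.09 with overlapping groups.

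Cdk1, the mitotic kinase, and its cyclins had 4 of 4 negative estimates, against 50.5% of all tested genes. Ccnb1, a B cyclin, had 9.30 and 9.23 in GSK and 9.40 and 9.37 in DMSO, a change of -0.12 ± 0.05 (adjusted p = 0.270). Ccnb1 shares 1287 bases at 99.2% identity with the pseudogene Ccnb1-ps, listed at 0.95. Cdk1 was at -0.09, with 10.17 and 10.10 in GSK and 10.24 and 10.22 in DMSO. Ccnb2, the other B cyclin, had 9.47 and 9.30 in GSK and 9.48 and 9.47 in DMSO. In Ccnb2 only GSK library 2 stood away from the other libraries. Ccna2, the A cyclin, had the same shape without the separation, with 10.003 and 9.86 in GSK and 9.98 and 9.98 in DMSO. Exons of Ccna2 and Exosc9 overlap on opposite strands.

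Mki67, the nuclear antigen by which dividing cells are counted, and Top2a, the topoisomerase that untangles chromosomes, both had overlapping groups. Mki67 had 11.76 and 11.71 in GSK and 11.72 and 11.74 in DMSO, with the DMSO values between the GSK values. The difference was 0.01, with a 95% interval of -0.10 to 0.12. Top2a had 11.63 and 11.48 in GSK and 11.59 and 11.61 in DMSO, again with GSK library 1 highest and GSK library 2 lowest.

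Spindle motors and kinetochore genes went both ways. Kif20a, a motor of cytokinesis, had 9.86 and 9.76 in GSK and 9.94 and 9.95 in DMSO (change -0.13 ± 0.05, adjusted p = 0.251), but 1271 of its 4338 exonic bases lie opposite exons of Cdc23. Kif11, the motor that separates spindle poles, was at -0.06. Cenpf, a large kinetochore protein, had 9.29 and 9.18 in GSK and 9.15 and 9.08 in DMSO. It was the 1 mitosis gene higher in both GSK libraries, at 0.12 ± 0.06 (adjusted p = 0.362). Cenpe, a kinetochore motor, had 9.95 and 9.79 in GSK and 9.86 and 9.86 in DMSO, so its GSK libraries enclosed the DMSO libraries.

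S phase and mitosis genes were then set side by side library by library, as a description with no test. The S phase genes averaged 8.98 and 8.98 (log2) in GSK libraries 1 and 2, and 9.05 and 9.07 in DMSO libraries 1 and 2. The mitosis genes averaged 9.64 and 9.56 in GSK libraries 1 and 2, and 9.67 and 9.67 in DMSO. S phase genes were thus low in both GSK libraries to a like extent, and mitosis genes mainly in GSK library 2. GSK library 1 lay below both DMSO libraries in 13 of 17 S phase genes and 9 of 16 mitosis genes, against 36.9% of all tested genes. GSK library 2 did so in 14 of 17 S phase genes and 15 of 16 mitosis genes, against 38.8%. Between the GSK libraries, library 2 was below library 1 in 14 of 16 mitosis genes and in 9 of 17 S phase genes, against 50.5% of all tested genes. GSK library 2 was the lowest of the 4 libraries in 13 of 16 mitosis genes and 7 of 17 S phase genes, against 28.3%. The mitosis mean stood above the S phase mean by 0.67 in GSK library 1 and 0.58 in GSK library 2, and by 0.63 and 0.60 in the DMSO libraries. This gap depends on gene lengths and only its spread over libraries is of use: the DMSO values lay between the GSK values.

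**Figure D2:**
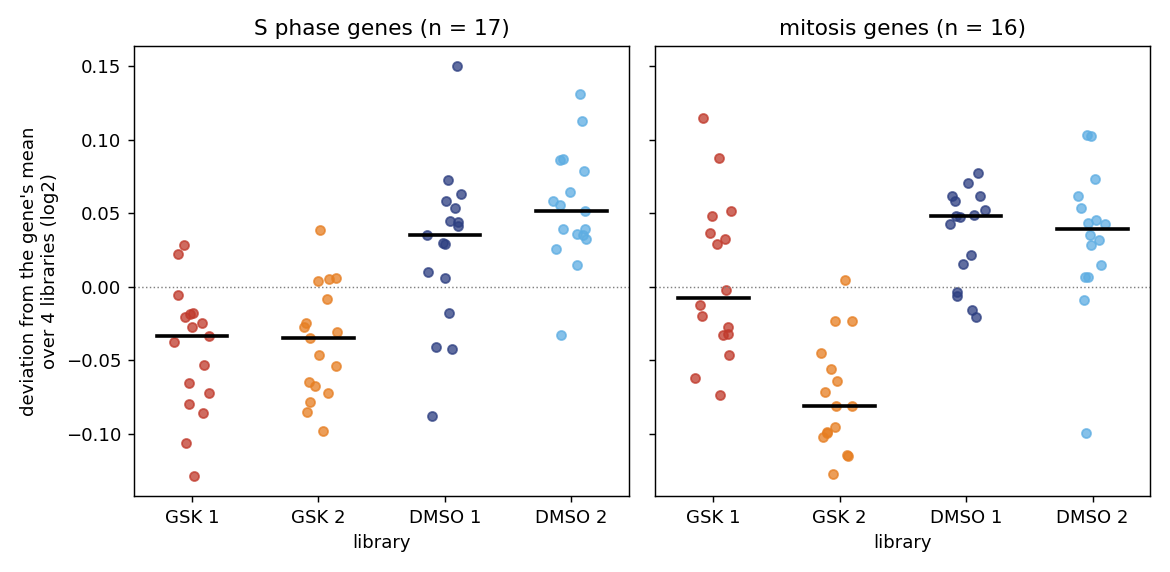
Deviation of each S phase gene (left, 17 genes) and mitosis gene (right, 16 genes) from its own mean over the 4 libraries (y axis, log2), by library, with the median as a bar. S phase medians lie below 0 in both GSK libraries (-0.03 and -0.03) and above it in both DMSO libraries (0.04 and 0.05), while the mitosis median is -0.01 in GSK library 1 and -0.08 in GSK library 2.

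D cyclins and CDK inhibitors had estimates on both sides of 0, 4 negative and 5 positive, with a median of 0.01. At an unadjusted p under 0.05, 1 was lower and 1 higher, against 8.13% and 7.88% of all tested genes. Ccnd2, the cyclin D2 gene (ENSMUSG00000000184, GRCm38 chromosome 6, 127125162 to 127152193), had 11.84 and 11.81 in GSK and 11.63 and 11.57 in DMSO. Its GSK libraries lay together above both DMSO libraries. The change was 0.22 ± 0.05 (95% interval 0.11 to 0.34), 1.17-fold higher on the deposited scale, with an adjusted p of 0.100. Ccnd3, cyclin D3, had 10.93 and 10.91 in GSK and 10.85 and 10.89 in DMSO, higher in both GSK libraries by a small margin (0.05, adjusted p = 0.622). Ccnd1, cyclin D1, had 8.35 and 8.36 in GSK and 8.34 and 8.70 in DMSO. For Ccnd1 only DMSO library 2 stood apart, and the change of -0.17 was 0.01 without that library. Exons of Ccnd1 and LTO1 overlap over 1100 of 4709 exonic bases on opposite strands, so part of its value is uncertain; exons of Ccnd2 and Ccnd3 also overlap other genes, over 372 and 361 bases at most.

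Of the inhibitors of the CIP and KIP family, Cdkn1a, which encodes p21 and is a classic target of p53, had the most negative estimate of all 42 members. Cdkn1a (ENSMUSG00000023067, chromosome 17, 29090976 to 29100727) had 11.04 and 10.74 in GSK and 11.27 and 11.09 in DMSO. Both GSK values were below both DMSO values, but GSK library 1 was only just below DMSO library 2. The change was -0.29 ± 0.11 (95% interval -0.55 to -0.03, 1.22-fold lower, adjusted p = 0.268), and lay between -0.44 and -0.14 when single libraries were left out. Cdkn1b, the inhibitor p27 of resting cells, had 10.40 and 10.28 in GSK and 10.38 and 10.26 in DMSO. In Cdkn1b library 1 was above library 2 in each group and the groups overlapped. Cdkn1c, the imprinted inhibitor p57, was at 0.01 with an interval of -0.10 to 0.12. Of its 2039 exonic bases, 625 lie opposite exons of Gm44732, so the value of Cdkn1c is uncertain. Of the 3553 exonic bases of Cdkn1a, 273 lie opposite exons of AC167363.2.

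INK4 inhibitors block the kinase partners of D cyclins. Cdkn2a, which makes p16 and the p53 activator ARF, was at -0.08, with 5.24 and 5.28 in GSK and 5.37 and 5.32 in DMSO. Cdkn2b, its neighbour on chromosome 4, had 7.09 and 7.41 in GSK and 7.27 and 7.29 in DMSO, so the GSK libraries lay on either side of both DMSO libraries. Cdkn2c had 8.63 and 8.72 in GSK and 8.67 and 8.63 in DMSO, with overlapping groups.

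**Figure D3:**
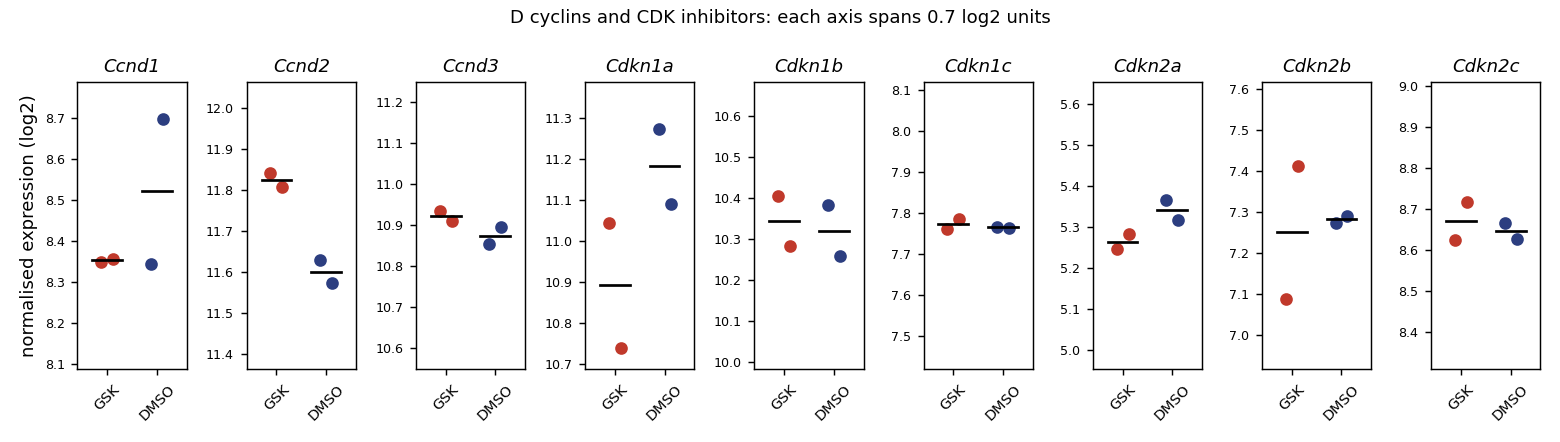
Normalised expression (y axis, log2) of the 9 D cyclin and CDK inhibitor genes in the 2 GSK and 2 DMSO libraries, with the group mean as a bar; the axes start at different values and have the same span. Ccnd2 is higher and Cdkn1a lower in both GSK libraries, and Ccnd1 has 1 high DMSO library.

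Levels of different genes were compared per length, as the mean log2 value less log2 of the exonic length in kilobases in GENCODE M21. This assumes that the deposited values had not been scaled by length. The exonic length joins the exons of all annotated transcripts of a gene, and can exceed the length of the transcripts present. The order of genes may change with another length, an error that the spread over libraries does not measure. On this scale Ccnd2 was the highest D cyclin at 8.48, followed by Ccnd3 at 7.77 and Ccnd1 at 6.20, gaps wider than the spread over libraries. Among the inhibitors Cdkn1a led at 9.21, followed by Cdkn1b at 8.15, Cdkn2c at 7.23, Cdkn2b at 6.79, Cdkn1c at 6.74 and Cdkn2a at 5.07. Cdkn2b and Cdkn1c do not differ beyond the spread of Cdkn2b between libraries. Among the S phase genes Pcna had the highest level per length at 9.32, and among the mitosis genes Ccnb2 at 8.82 and Cdc20 at 8.72.

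Other genes of the pathway, taken from lists made by role with earlier results of these data known, were set beside the members. Of 45 other replication genes 0 passed the limma test (11 at an unadjusted p under 0.05, each lower in GSK), 36 had a negative estimate and in 28 both GSK libraries were below both DMSO libraries, with a median change of -0.06. Of all tested genes 50.5% had a negative estimate, 24.5% had both GSK libraries below both DMSO libraries and 8.13% were lower at an unadjusted p under 0.05. Cdc7, the kinase that fires origins, had 7.31 and 7.32 in GSK and 7.50 and 7.48 in DMSO (change -0.17 ± 0.04, adjusted p = 0.143). Uhrf1, which carries DNA methylation through replication, had 9.22 and 9.20 in GSK and 9.36 and 9.38 in DMSO (change -0.16 ± 0.04, adjusted p = 0.150). In both genes each group's libraries lay within 0.02 of each other. Orc6, of the origin recognition complex, was at -0.14, and the positive estimates with the smallest p were those of Orc2 at 0.09, Rfc5 at 0.06 and Fen1 at 0.03.

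Of 57 other mitosis genes 0 passed in limma (4 at an unadjusted p under 0.05, each lower in GSK), 47 had a negative estimate and in 25 both GSK libraries were below both DMSO libraries, with a median of -0.05. The same shares of all tested genes, 50.5% and 24.5%, stand beside these counts, and 8.13% of all tested genes were lower at an unadjusted p under 0.05, so 4 of 57 is no more than the background. Espl1, the separase that cuts cohesin at anaphase, had 8.00 and 8.03 in GSK and 8.19 and 8.26 in DMSO, apart in every library, with a change of -0.21 ± 0.05 (adjusted p = 0.126). Ckap2, a spindle protein, and Anln, the actin-binding anillin of the cleavage furrow, were at -0.16 and -0.12. Nek2, a centrosomal kinase, was at 0.07, Fbxo5, an inhibitor of the anaphase-promoting complex, at 0.06 and Cenpk, of the kinetochore, at 0.04. GSK library 2 was below GSK library 1 in 45 of these 57 genes and in 34 of the 45 other replication genes, against 50.5% of all tested genes. The lower second library was thus not limited to mitosis genes. In DMSO, library 2 was below library 1 in 38 of the 57 and 23 of the 45, against 7334 of 14548 tested genes. In the other mitosis genes a lower second library was therefore not limited to GSK.

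Of 25 genes of the E2F and RB families and the CDKs 0 passed in limma, with 13 negative and 12 positive estimates and a median of -0.02. At an unadjusted p under 0.05, 1 was lower and 1 higher, against 8.13% and 7.88% of all tested genes. Rbl2, which encodes the RB relative p130 of resting cells, had 9.24 and 9.24 in GSK and 9.07 and 9.08 in DMSO. Its libraries agreed within each group, and its change was 0.17 ± 0.04 (adjusted p = 0.137). Rbl1, the relative p107 that is itself an E2F target, was at -0.07, Tfdp1, the partner of E2F proteins, at -0.11, Lin54 at -0.06, Tfdp2 at 0.10 and E2f2 at 0.06.

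Of 19 tested p53 target genes, Trp53 itself among them and Perp below the filter at 2.99, 0 passed in limma and the median was -0.01. At an unadjusted p under 0.05, 3 were lower and 1 higher, against 8.13% and 7.88% of all tested genes. Plk2, a polo-like kinase of the stress response, had 9.87 and 9.96 in GSK and 10.60 and 10.39 in DMSO. Its groups were well apart, and its change of -0.58 ± 0.07 had an adjusted p of 0.054. With single libraries left out that p was 0.014 without DMSO library 2, 0.109 without DMSO library 1, 0.071 without GSK library 1 and 0.077 without GSK library 2, where the lone library of a group was assumed to vary like the other group's pair. Fas, the death receptor, was at -0.28 and Gadd45a, a stress sensor, at -0.23, both lower in both GSK libraries like Cdkn1a (adjusted p = 0.150 and 0.143). Trp53inp1 was at 0.20, Phlda3 at 0.08 and Trp53, the p53 gene, at 0.03.

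**Figure D4:**
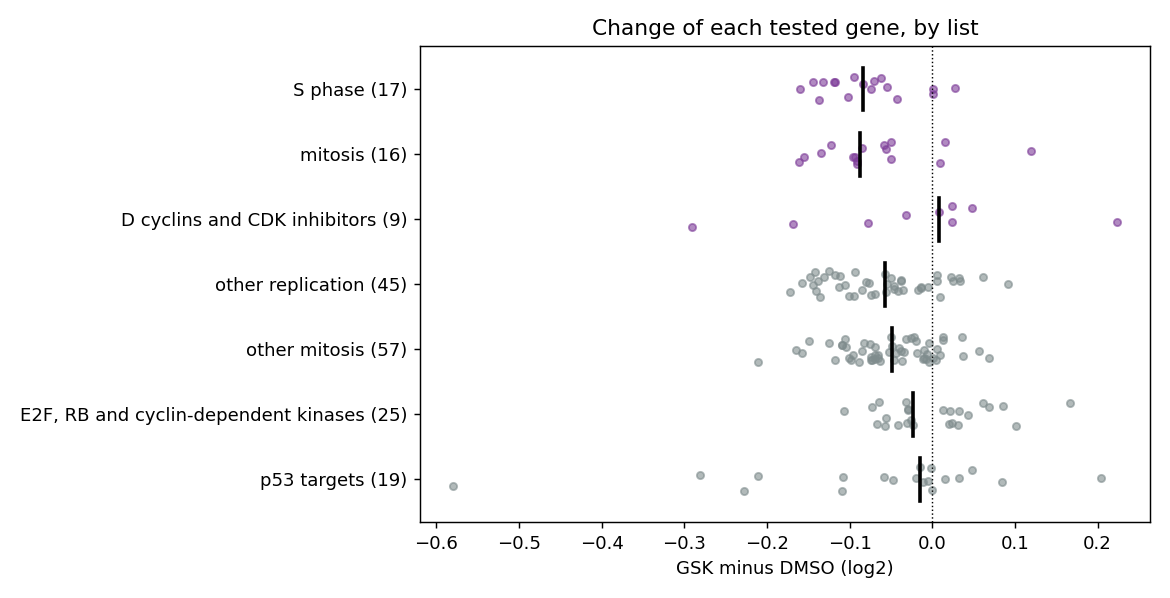
Change of each tested gene (x axis, GSK minus DMSO, log2) by list, with the number of tested genes in brackets, the list's median as a bar and the median of all tested genes as a dotted line; purple points are the 42 members. The S phase and mitosis medians are -0.08 and -0.09, those of the other replication and mitosis lists -0.06 and -0.05, and Plk2 lies farthest out at -0.58.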

How the data were processed

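RNA of the mesenchymal fraction left after magnetic depletion was sequenced from 4 samples, per the labels' protocols. The authors deposited log2 normalised values for 22456 Ensembl genes, from -1.035 to 20.58. Listed in the submitters' processing notes, with no roles, are Bowtie2, RSEM 1.2.29, DESeq2 1.12.4 and the genome builds GRCh38 and mm10. The sources used here state neither the transformation nor the read depth, and the unit was read off the values.

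Symbols, positions and exons came from GENCODE M21 (GRCm38), with 22335 identifiers matched. Limma 3.58.1 in R 4.3.3 compared GSK with DMSO in the 14548 genes whose mean reached log2 of 10 (3.32), with the group only, a variance prior that follows the mean, two-sided p-values and Benjamini-Hochberg adjustment over all tested genes at 0.05. The fit was tested on simulated data with larger changes than those of the members, so power for changes of their size was not tested. Lists were described by counts and medians. The rule named the 42 members and, of each further list, up to 3 genes per direction with the smallest p. Members and lists were chosen with earlier results of these data known; the groups by role were set for the text. Shared sequence was at least 98% identity over 200 bases (blastn 2.17.0). Strand use in counting is not given, so genes with overlapping exons on opposite strands are uncertain. Alternatives were other filters, quantile and trimmed-mean scaling, other variance priors, the replicate number as a block, and each library left out. No gene had equal values in both libraries of a group.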

Additional observations from a re-analysis of the deposited data

How the results depend on the processing

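Of the 42 members 0 passed the limma threshold under the 10 alternatives other than the replicate block, where the smallest adjusted p of a member ran from 0.0887 (Cdkn1a without GSK library 1) to 0.272 (Ccnd2 with no filter). The count of called genes over the whole table, 41, was 1 with no filter, 23 after quantile normalisation, 11 with a variance prior without trend, 138 with a robust prior and 7 to 194 with single libraries left out (7 without DMSO library 1, 194 without DMSO library 2, 70 without GSK library 1). With the replicate number as a block it was 1374, with 1 S phase gene (Rrm2), 1 mitosis gene (Plk1) and 2 D cyclin and inhibitor genes (Ccnd2 and Cdkn1a); the numbers are not stated to pair the samples. Same-numbered libraries deviated together (correlation 0.428 over tested genes), but 2 pairs do not settle pairing. The mitosis median ran from -0.126 to -0.045 with single libraries left out, and the mitosis mean of DMSO library 1 was 9.67 after quantile normalisation. Of the 42 members 30 kept their direction under the 11 alternatives, though Cdkn2a, like Cenpk, did not pass the stricter filter and has no value there. The 12 that did not, and Rfc5, turned only when a library was left out, with the ranges -0.124 to 0.023 (Ccna2), -0.345 to 0.0082 (Ccnd1), -0.087 to 0.088 (Ccne1), -0.038 to 0.086 (Cdkn1b), -0.0049 to 0.020 (Cdkn1c), -0.194 to 0.131 (Cdkn2b), -0.022 to 0.070 (Cdkn2c), -0.064 to 0.095 (Cenpe), -0.0015 to 0.056 (E2f1), -0.039 to 0.042 (Gins2), -0.019 to 0.037 (Mki67), -0.0041 to 0.127 (Rfc5) and -0.128 to 0.026 (Top2a). Of the further genes Plk2 passed with a robust prior (adjusted p = 0.0434) and without DMSO library 2, and under the block 6 did: Plk2 (adjusted p = 0.0021), Fas (0.0112), Espl1 (0.0266), Rbl2 (0.0361), Gadd45a (0.0410) and Uhrf1 (0.0432). The causes were not tested. Read depth is not known, so no limit that depth sets can be given.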
